A study of Mus musculus with 12 samples.

Results

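The axonal transport motor genes described here are 10 genes that encode the main motors carrying cargo along the microtubules of axons. They were chosen by name, and each of the 10 names matched 1 of the 33906 gene identifiers of the tables through GENCODE M21 on the mouse build GRCm38. They are the kinesin-1 heavy chain genes Kif5a, Kif5b and Kif5c, the kinesin-3 genes Kif1a and Kif1b, the kinesin-2 genes Kif3a, Kif3b and Kif3c, the dynein heavy chain gene Dync1h1 and the dynactin gene Dctn1. RNA was sequenced from the lumbar spinal cord of 12 mice, 3 in each of 4 groups, after poly(A) selection. The healthy wild-type group H comprised H1, H2 and H4. P, C and E came from a mouse model of amyotrophic lateral sclerosis (ALS), a disease in which motor neurons degenerate. The sources used here do not give the strain, age or sex of any group, nor the doses. Group P was fed phosphate-buffered saline (P66, P67 and P74), and group C received manganese-doped carbon dots with an activity like that of superoxide dismutase (C79, C84 and C85). Group E is read as the group given edaravone, a radical scavenger used in ALS (E75, E77 and E90), because the series text describes that drug under a code no sample carries.

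Kinesins of these families walk toward the plus ends of microtubules and so carry vesicles, mitochondria and cytoskeletal proteins from the cell body down the axon. Cytoplasmic dynein walks the other way and, together with its cofactor dynactin, returns signalling endosomes and worn organelles. Motor neurons have very long axons, and in people inherited changes in KIF5A and DCTN1 have been linked to motor neuron disease. Kif5a and Kif5c are mainly neuronal, whereas Kif5b is made in most cell types, and Kif3a and Kif3b also serve the transport within cilia.

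Values are FPKM, read counts divided by exon length and library size, a scale per length on which the levels of different genes can be compared. Differences between groups are on the log2(FPKM + 1) scale, with the standard error (SE) or the 95% confidence interval of the limma fit, and a gene was called when its p, adjusted over all 18118 tested genes, was below 0.05. Sequencing depth, as recovered from the FPKM steps, came to 16.8 to 19.8 M reads per library. All 10 members passed the filter on low values, with between 801 reads for Kif3b and 40073 for Kif5a in a library. Some libraries stood apart in ways that bear on the members. A caudal Hox score, the mean log2(FPKM + 1) of 9 tested Hox genes expressed in the caudal cord, stood at 0.32 in H4, 0.86 in P66 and 0.54 in C84 and 1.26 to 2.71 in the others. The skeletal muscle score was 7.60 in H1 and 0.31 to 3.97 in the others. Neuron, astrocyte, oligodendrocyte and microglia markers were present in all libraries. The motor neuron markers Chat and Slc18a3 had means of 11.3 and 22.7 FPKM in H.

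The promoter table of RefSeq (GRCm38.p6) held 8 of the 10 members, all but Kif5a and Kif5b. The 250 bases before the annotated start (the first listed, where there are several) are shown for Kif5c and Kif1b, which were lower in the mean of the model groups, and for Kif3b and Dync1h1, which were not called. Capitals mark matches on either strand to the GC box GGGCGG, the cAMP response element TGACGTCA and the CCAAT box.
Kif5c, chr2:49619036-49619285, plus strand: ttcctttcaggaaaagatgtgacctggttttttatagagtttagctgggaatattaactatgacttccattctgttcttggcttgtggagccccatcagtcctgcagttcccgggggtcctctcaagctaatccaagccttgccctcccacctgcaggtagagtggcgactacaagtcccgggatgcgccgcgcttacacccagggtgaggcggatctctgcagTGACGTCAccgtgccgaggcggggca
Kif1b, chr4:149307734-149307983, minus strand: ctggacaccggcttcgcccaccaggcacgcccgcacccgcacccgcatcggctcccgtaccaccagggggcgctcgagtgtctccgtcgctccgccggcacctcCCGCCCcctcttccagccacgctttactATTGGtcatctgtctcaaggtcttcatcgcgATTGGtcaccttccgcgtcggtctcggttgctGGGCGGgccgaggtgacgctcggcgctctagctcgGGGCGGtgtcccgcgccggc
Kif3b, chr2:153291166-153291415, plus strand: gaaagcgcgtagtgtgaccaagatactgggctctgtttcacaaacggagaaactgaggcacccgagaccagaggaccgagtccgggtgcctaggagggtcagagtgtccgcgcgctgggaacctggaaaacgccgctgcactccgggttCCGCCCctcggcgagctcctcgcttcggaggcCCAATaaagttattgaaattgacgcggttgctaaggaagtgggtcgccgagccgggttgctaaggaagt
Dync1h1, chr12:110601145-110601394, plus strand: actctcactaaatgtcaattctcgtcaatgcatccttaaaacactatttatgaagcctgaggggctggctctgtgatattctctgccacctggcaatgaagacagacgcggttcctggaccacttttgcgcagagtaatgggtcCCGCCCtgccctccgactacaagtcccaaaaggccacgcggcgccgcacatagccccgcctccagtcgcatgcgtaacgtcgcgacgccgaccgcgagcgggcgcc
The Kif5c window held the cAMP response element, whose first base lies 26 bases before the start, and neither of the others. The Kif1b window held 3 GC boxes and 2 CCAAT boxes, the Kif3b window 1 of each, and the Dync1h1 window 1 GC box. Over all 32851 promoters of the table, 1.55% held the cAMP response element, 32.7% a GC box and 33.8% a CCAAT box. None of these 3 motifs was in both the Kif5c and the Kif1b window.

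Kif5a lay within the top 1% of tested genes by its mean over all 12 libraries. In the healthy cord it stood above all other members, at 308 ± 30.7 FPKM (SD, n = 3). Kif1a, which carries precursors of synaptic vesicles, followed at 147 ± 25.6, and Kif5c at 126 ± 18.7, and these 2 overlapped. Kif5b had 89.2 ± 1.74, with the smallest relative spread of the members in H (1.95% of its mean). Kif1b, which moves mitochondria and vesicle precursors, had 78.2 ± 11.4 and overlapped with Dctn1 at 68.4 ± 9.88. Dync1h1 had 43.2 ± 11.3 and overlapped with Kif3a at 38.1 ± 4.42. Kif3c, at 16.8 ± 4.05, and Kif3b, at 10.4 ± 1.09, were lowest. The first and the last 2 places of this order were the same in P, C and E. H4 was the lowest healthy library for all 10 members, and P66 was the lowest saline library for all but Kif5b.

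**Figure D1:**
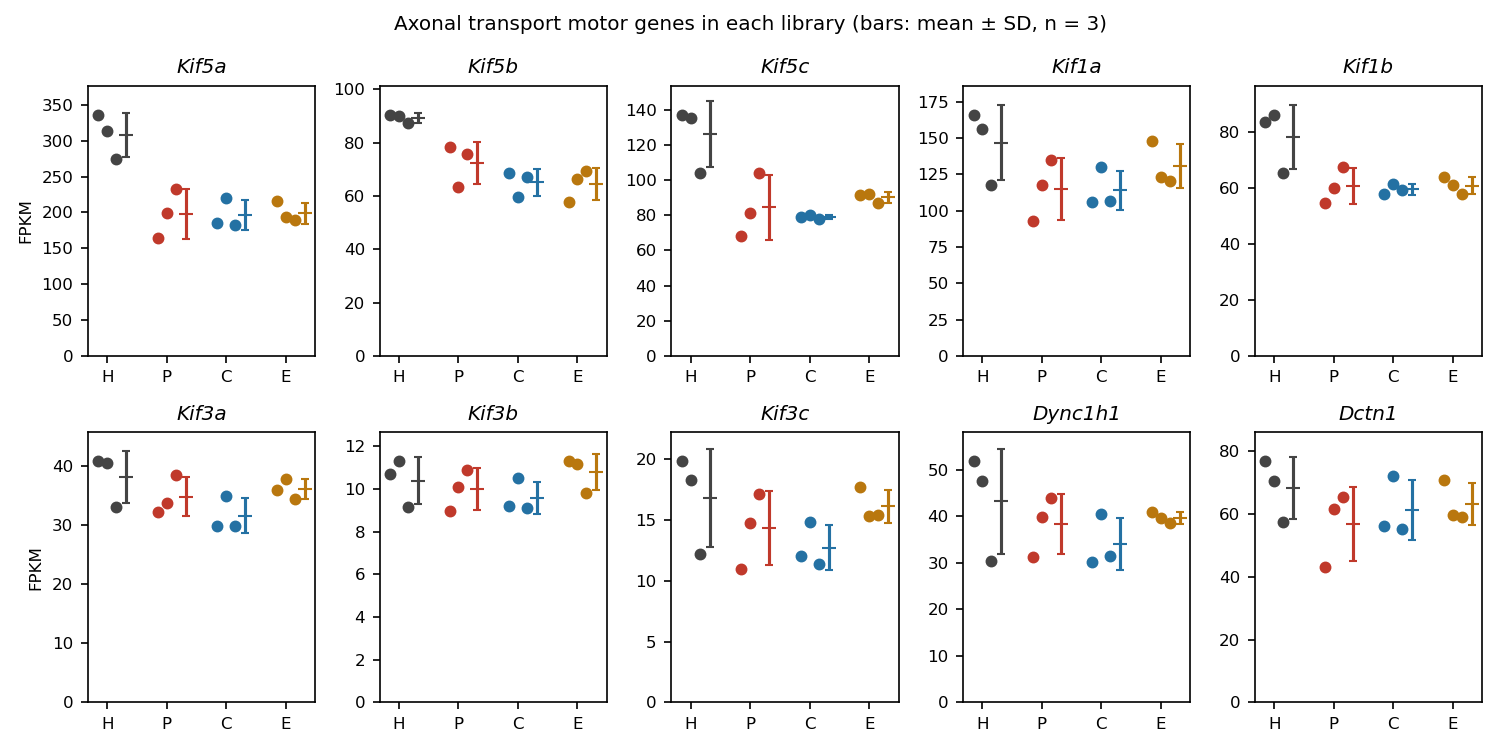
FPKM of each member in each library, with mean and SD per group (n = 3 mice) drawn beside the points; the axes start at 0 and differ between panels. Kif5a and Kif5b are the members whose 9 model libraries all lie below every healthy library.

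The members lie on 8 chromosomes of GRCm38. Kif5a (ENSMUSG00000074657) spans 127225696 to 127263348 of chromosome 10, Kif5b (ENSMUSG00000006740) spans 6201002 to 6242174 of chromosome 18 and Kif5c (ENSMUSG00000026764) spans 49619298 to 49774778 of chromosome 2. Kif1a (ENSMUSG00000014602) spans 93015464 to 93101951 of chromosome 1 and Kif1b (ENSMUSG00000063077) spans 149176319 to 149307693 of chromosome 4. Kif3a (ENSMUSG00000018395) spans 53567379 to 53601967 of chromosome 11, Kif3b (ENSMUSG00000027475) spans 153291413 to 153333390 of chromosome 2 and Kif3c (ENSMUSG00000020668) spans 3365132 to 3406494 of chromosome 12. Dync1h1 (ENSMUSG00000018707) spans 110601452 to 110666945 of chromosome 12 and Dctn1 (ENSMUSG00000031865) spans 83165920 to 83200117 of chromosome 6. Reads were counted over exons, and the union of exons ran from 3586 bases for Kif3a to 17608 for Kif1b. The paralogues can be told apart at the read level. Read in the direction of the transcripts, no stretch of 50 bases in a member occurs in a transcript of another member. At most 1.06% of such stretches (Kif3a) occur in that direction in the transcripts of any other gene. Matches to the opposite strand are not in this share. Antisense transcripts overlap the exons of Kif3c, Kif5b and Dync1h1. The largest overlap is that of 1110002L01Rik with 35.3% of the Kif3c exons, at a mean of 0.87 FPKM, and reads of the strands cannot be told apart because the sources used here do not state the strand setting of the counting.

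The comparison of P with H asks how the motors differ between the diseased and the healthy cord. 2 members, Kif5a and Kif5c, were lower in P, and none was higher. The share of all tested genes called lower was 3.26%, that called higher was 12.2%, and that called in either direction was 15.5%. All 10 members had a difference below 0, with a median of -0.29, against a median of 0.07 and 38.6% below 0 over all tested genes. The intervals of the 3 kinesin-1 heavy chains and Kif1b lay below 0, and those of the other 6 members spanned 0.

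Kif5a, the neuronal kinesin-1 that carries neurofilaments among other cargo, had 336, 313 and 275 FPKM in the healthy mice H1, H2 and H4, against 164, 199 and 233 in P66, P67 and P74. No saline library reached the lowest healthy one. The P mean was 64.5% of the H mean, and the difference was -0.64 ± 0.14 (SE, n = 3 per group, adjusted p = 0.0119). Without P66 it was -0.51 (adjusted p = 0.0464), and with only H and P in the fit it did not pass (adjusted p = 0.0512).

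Kif5c, the other mainly neuronal heavy chain, had 137, 135 and 104 FPKM in the healthy mice H1, H2 and H4, against 67.9, 81.5 and 104 in P66, P67 and P74. H4 and P74 had almost the same level, so the groups touched. The difference was -0.58 ± 0.15 (adjusted p = 0.0243), with a P mean of 67.3% of that of H. This call was lost without H1 (-0.51, adjusted p = 0.0675), H2 (-0.52, adjusted p = 0.0931), P66 (-0.43, adjusted p = 0.0969) or P67 (-0.56, adjusted p = 0.0758), without the filter (adjusted p = 0.0565) and with only H and P in the fit (adjusted p = 0.0922).

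Kif5b, the heavy chain made in most cell types, had 90.4, 90 and 87.2 FPKM in the healthy mice H1, H2 and H4, against 78.2, 63.5 and 75.6 in P66, P67 and P74. The groups did not overlap, as for 8.88% of tested genes in that direction, but the difference did not pass (-0.30 ± 0.10, adjusted p = 0.0705). P66, the lowest saline library for Kif5a and Kif5c, was the highest for Kif5b. Kif5b passed with median-ratio scaling (-0.42, adjusted p = 0.0325) and once trends with length and GC content were removed (-0.45, adjusted p = 0.0114). It was further from the threshold without P67 (-0.21, adjusted p = 0.237) or H2 (-0.30, adjusted p = 0.168).

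Kif1b had 83.4, 86.0 and 65.1 FPKM in the healthy mice H1, H2 and H4, against 54.6, 59.8 and 67.3 in P66, P67 and P74, with H4 below P74. Its difference was close to the threshold (-0.36 ± 0.11, adjusted p = 0.0548). It passed in 6 of 22 other settings, among them without H4 (-0.48, adjusted p = 0.0158) or P74 (-0.43, adjusted p = 0.0304). It was further from the threshold without H1 (-0.31, adjusted p = 0.139), H2 (-0.28, adjusted p = 0.188), P66 (-0.29, adjusted p = 0.19) or P67 (-0.35, adjusted p = 0.133). Kif1a had 166, 156 and 118 FPKM in the healthy mice H1, H2 and H4, against 92.6, 118 and 135 in P66, P67 and P74. Its groups overlapped through H4, and its difference of -0.35 ± 0.17 did not pass (adjusted p = 0.169).

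The kinesin-2 genes were not called. Kif3a encodes the subunit that pairs with Kif3b or Kif3c, and had 40.8, 40.6 and 33 FPKM in the healthy mice H1, H2 and H4, against 32.2, 33.7 and 38.5 in P66, P67 and P74 (-0.12 ± 0.11, adjusted p = 0.446). Kif3b had 10.7, 11.3 and 9.18 FPKM in the healthy mice H1, H2 and H4, against 8.98, 10.1 and 10.9 in P66, P67 and P74, and its 95% interval ran from -0.27 to 0.17. Kif3c, which is enriched in neurons, differed by -0.21 ± 0.18 (adjusted p = 0.452). The healthy and saline libraries of all 3 genes overlapped.

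The retrograde motor genes were not called either. Dync1h1, the heavy chain that holds the motor of dynein, had 51.8, 47.5 and 30.4 FPKM in the healthy mice H1, H2 and H4, against 31.2, 39.8 and 43.9 in P66, P67 and P74. H4 lay below all saline libraries, and the interval of the difference ran from -0.56 to 0.26 (adjusted p = 0.616). Dctn1, the large dynactin subunit that binds microtubules and dynein, had 76.8, 70.7 and 57.5 FPKM in the healthy mice H1, H2 and H4, against 43.3, 61.5 and 65.4 in P66, P67 and P74 (-0.28 ± 0.17, adjusted p = 0.276). These intervals leave room for differences of the size seen for Kif1b.

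**Figure D2:**
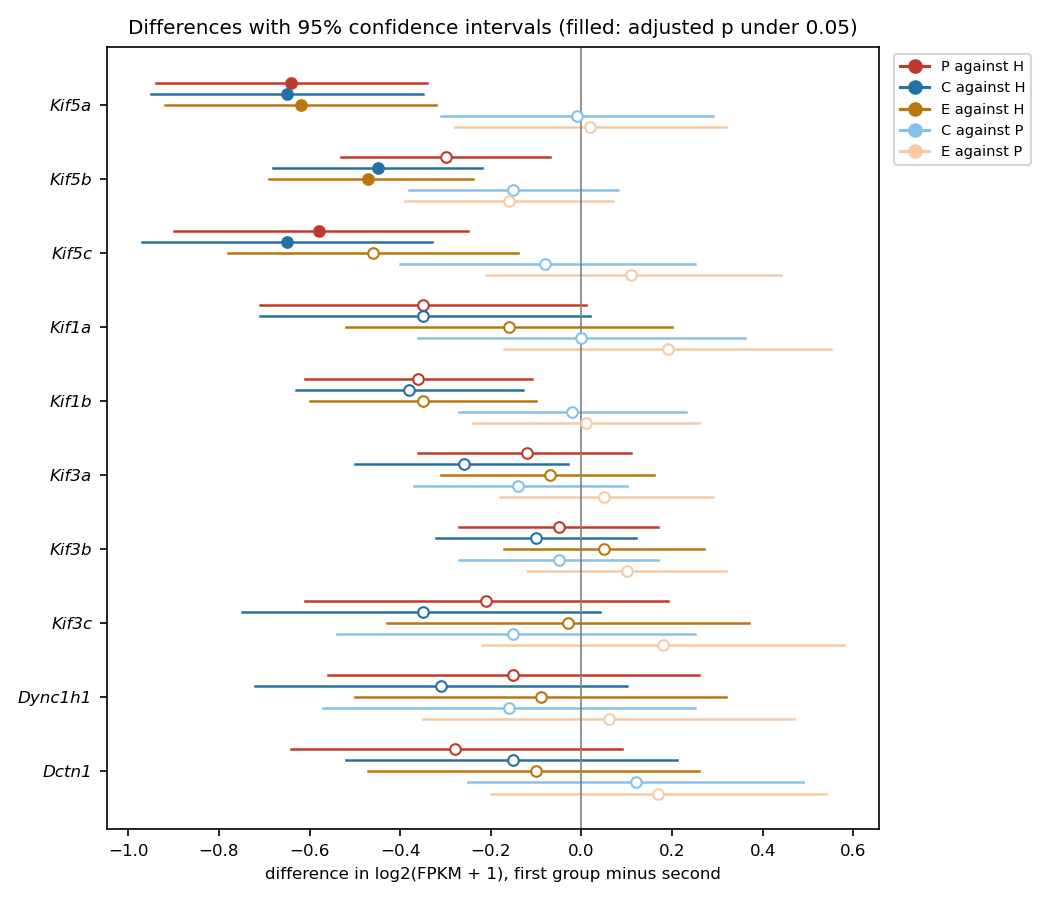
Difference in log2(FPKM + 1) of each member in 5 comparisons, with 95% confidence intervals of the limma fit and filled points where the adjusted p was below 0.05. The differences of Kif5a from H lie between -0.65 and -0.62 in P, C and E, while all intervals of C and E against P include 0.

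The comparisons of C and of E with P ask whether either treatment moved the motors in the model. With limma, 0 of 10 members passed in C against P and 0 passed in E against P, and none had an unadjusted p below 0.05 in either. Of all 18118 tested genes, 1802 had such a p in C against P and 889 in E against P. The share of all tested genes called was 0.00552% in C against P and 0% in E against P, so few genes of any kind were called. These comparisons share the P libraries. Kif5a had 186, 220.3 and 182 FPKM in C79, C84 and C85 and 216, 194 and 189 in E75, E77 and E90, all within the range of the saline libraries. Its difference from P was -0.01 in C, with an interval from -0.31 to 0.29, and 0.02 in E, with an interval from -0.28 to 0.32. Kif5c had 79, 80.1 and 77.9 FPKM in C79, C84 and C85 and 91.7, 92.2 and 86.8 in E75, E77 and E90. Its intervals against P ran from -0.40 to 0.25 in C and from -0.21 to 0.44 in E. Kif5b had 68.7, 59.5 and 67.2 FPKM in C79, C84 and C85 and 57.7, 66.5 and 69.3 in E75, E77 and E90, with means below the 72.4 of P. Over the 10 members, the intervals reached from -0.57 to 0.49 in C against P and from -0.39 to 0.58 in E against P. In C against P 8 members had a difference below 0 (median -0.06), against 54.6% of all tested genes (median -0.02). In E against P 1 member did (median 0.08), against 46.3% of all tested genes (median 0.01).

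The 2 treated groups were also set against each other. 0 of 10 members passed in C against E with limma, against 0.121% of tested genes called lower, 0.0497% higher and 0.171% in either direction. No member had an unadjusted p below 0.05, against 1991 of all 18118 tested genes. 9 of the 10 members had lower values in C, with a median difference of -0.17, against -0.02 and 55.3% below 0 over all tested genes. Kif3c had 12, 14.8 and 11.4 FPKM in C79, C84 and C85 and 17.7, 15.3 and 15.4 in E75, E77 and E90. The Kif3c difference did not pass (-0.33 ± 0.18, adjusted p = 0.54). The caudal Hox score was 0.54 to 1.34 in C and 2.25 to 2.71 in E, and the Schwann cell and nerve root score was 1.99 to 2.75 in C and 3.28 to 4.06 in E. The part of either in these differences was not tested.

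Each treated group was then compared with H, whose libraries these comparisons share with P against H. In C, 3 members were lower, Kif5a (-0.65 ± 0.14, adjusted p = 0.0158), Kif5b (-0.45 ± 0.10, adjusted p = 0.0237) and Kif5c (-0.65 ± 0.15, adjusted p = 0.0203), that is, all 3 kinesin-1 heavy chains. Of all tested genes 1.06% were called lower, 7.25% higher and 8.31% in either direction. In E, 2 members were lower, Kif5a (-0.62 ± 0.14, adjusted p = 0.0135) and Kif5b (-0.47 ± 0.10, adjusted p = 0.0144), against 2.15% of tested genes called lower, 11.1% higher and 13.2% in either direction. Kif5c in E differed by -0.46 ± 0.15 and did not pass (adjusted p = 0.0584). In the same comparison of E, the Schwann cell and nerve root list had 10 of 11 genes higher (median 2.14), 3 of 9 caudal Hox genes were higher, 3 of 12 oligodendrocyte genes were lower and 5 of 7 erythroid genes were lower. In C against H these counts were 1, 0, 0 and 1, with 2 oligodendrocyte genes higher. Their part in the member results was not tested. The C and E means of Kif5a were 63.7 and 64.8% of the H mean, beside 64.5% for P. In C against H all 3 calls were lost without H1, H2 or C85. The Kif5a call was also lost without C79, Kif5b without C84, and Kif5c without C79 or C84. The highest adjusted p of the alternatives was 0.0726 for Kif5a, 0.0874 for Kif5b and 0.0919 for Kif5c. In E against H both calls were lost without H2, that of Kif5a also without E90 and that of Kif5b without E75, with adjusted p up to 0.0585 and 0.0538.

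The mean of the 3 model groups was set against H to use all 9 model libraries, with P, C and E weighted equally. 4 of the 10 members were lower and none was higher, against 4.19% of tested genes called lower, 16.4% called higher and 20.6% called in either direction. Kif5a was lower by -0.64 ± 0.11 (adjusted p = 0.00299), Kif5c by -0.56 ± 0.12 (adjusted p = 0.00797), Kif5b by -0.41 ± 0.09 (adjusted p = 0.00757) and Kif1b by -0.36 ± 0.09 (adjusted p = 0.0193). The 9 model libraries of Kif5a ran from 164 to 233 FPKM with a median of 194, below the 275 of H4. Those of Kif5b ran from 57.7 to 78.2 with a median of 67.2, below the 87.2 of H4. For Kif5c and Kif1b, 8 of 9 model libraries lay below every healthy one, with P74 as the exception. A complete separation of the model below H was seen for 2 members, Kif5a and Kif5b, and for 2.63% of tested genes. The Kif5a and Kif5b calls held without any 1 library. Those of Kif5c (-0.50, adjusted p = 0.0559) and Kif1b (-0.29, adjusted p = 0.121) were lost without H2, and that of Kif1b also without H1 (-0.31, adjusted p = 0.084). Without H4, P66 and C84, the libraries of low caudal score, 8 of 10 members were called lower, all but Kif3b and Dctn1. The share of tested genes called lower in that setting is not given here. Over all genes, 2468 to 4889 were called in either direction in the settings other than leaving out 1 library, this one included. Without these libraries Dync1h1 was at -0.41 (adjusted p = 0.00684), beside -0.18 ± 0.15 (adjusted p = 0.418) with all libraries. Dync1h1 was also called without H4 alone (-0.41, adjusted p = 0.0473).

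Within a library the balance of the kinesin-1 heavy chains changed little beside their sum. The summed FPKM of Kif5a, Kif5b and Kif5c was 523 ± 50.5 in H, 355 ± 52.3 in P, 340.3 ± 17.4 in C and 354 ± 10.3 in E, and every model library lay below every healthy one. Kif5a made up 58.9 ± 0.721% of that sum in H and 55.7 ± 2.55% in P, Kif5c 24.0 ± 1.46% and 23.6 ± 1.70%, and Kif5b 17.2 ± 1.38% and 20.7 ± 3.94%. The summed kinesin-2 genes had 65.3 ± 9.46 FPKM in H and 59.1 ± 7.20 in P, with overlap. Ratios within a library do not depend on its scaling. The ratio of Kif5a to Kif3b took the values 31.5, 27.7 and 30.0 in the 3 healthy libraries and 17.3 to 21.3 in the 9 model libraries. H4, which was low for both genes, lay between H1 and H2 on this ratio. The ratio of Kif5a to Dync1h1 took the values 6.48, 6.58 and 9.04 in the same libraries and 4.90 to 6.17 in the model libraries, again with no overlap. The ratio of Kif5b to Dync1h1 overlapped, at 1.74 to 2.87 in H and 1.41 to 2.51 in the model. These ratios are descriptions of values already tested gene by gene.

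**Figure D3:**
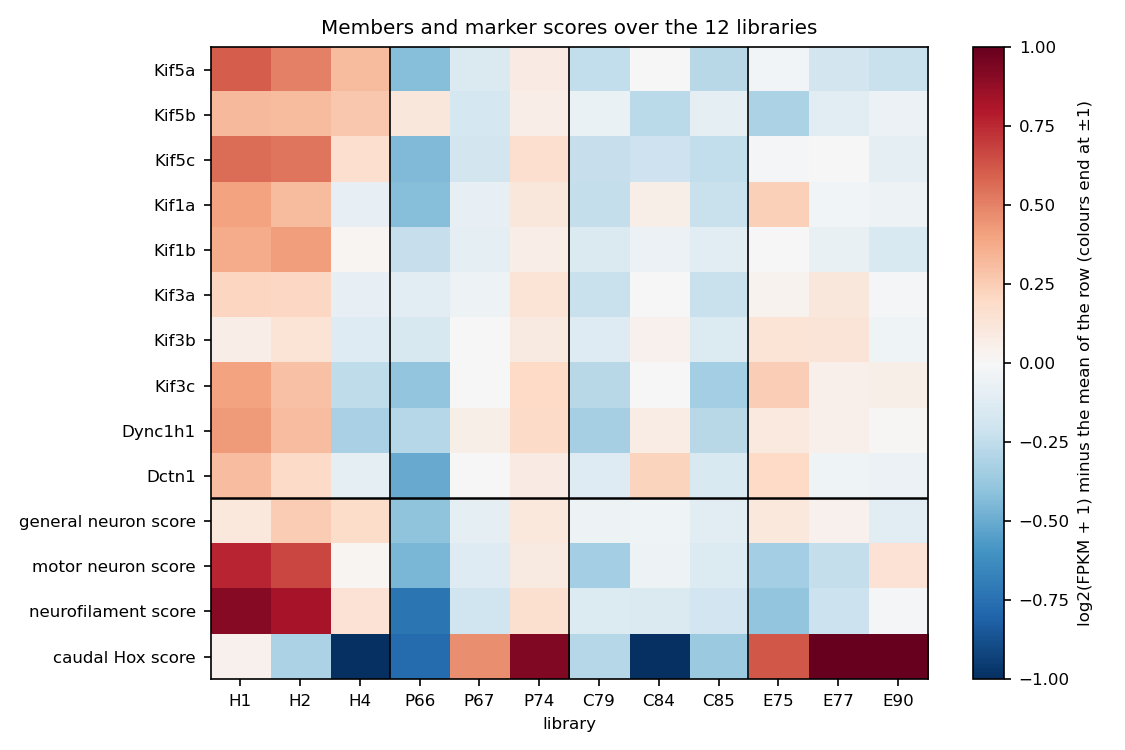
log2(FPKM + 1) of each member and 4 marker scores in the 12 libraries, each row centred on its own mean; red is higher and blue lower. H4 lies below H1 and H2 in all 10 members, and P66 is the lowest saline library in all but Kif5b; the caudal Hox colours end at ±1.

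Markers of neurons were also lower in the model. 8 of 20 general neuron genes were lower in P than in H and none was higher, with a median of -0.39, led by Uchl1 (-0.61 ± 0.12, adjusted p = 0.00873), a deubiquitinase abundant in neurons. The neuron score ran from 5.88 to 6.03 in H, from 5.37 to 5.88 in P, from 5.66 to 5.73 in C and from 5.67 to 5.88 in E. In H4 it was 5.96, between the 5.88 of H1 and the 6.03 of H2, whereas the mean of the 10 members was 5.72 in H4, 6.11 in H1 and 6.07 in H2. 8 of 18 motor neuron genes were lower and 1 was higher, with a median of -0.68, led by the fast motor neuron marker Chodl (-2.15 ± 0.28, adjusted p = 0.000939). The motor neuron score ran from 3.23 to 3.97 in H and from 2.75 to 3.35 in the 9 model libraries. Within H it was lowest in H4, at 3.23, beside 3.97 in H1 and 3.88 in H2, unlike the general neuron score. In RNA of whole tissue, fewer neurons and less RNA per neuron cannot be told apart. The part of these marker changes in the member results was not tested. Microglial genes rose, 11 of 12 with a median of 1.81, and astrocyte genes rose, 7 of 12 with a median of 0.54. Of 11 Schwann cell and nerve root genes 4 were higher, with a median of 0.86. Of 7 erythroid genes 3 were lower, with a median of -1.74, and their score was 3.64 to 5.64 in H and 2.52 to 3.59 in the 9 model libraries, with no overlap. Without P66, 1 Schwann cell gene and 0 erythroid genes were called. Among 12 oligodendrocyte genes 1 was higher and 1 lower, among 10 ependymal genes 1 was higher, and among 8 endothelial genes 1 was lower. Beside all these counts, 3.26% of tested genes were called lower in P than in H and 12.2% higher. The skeletal muscle score was 1.58 to 7.60 in H and 0.31 to 3.50 in the model libraries. Without H1, the library of the highest muscle score, the difference was -0.58 for Kif5a (adjusted p = 0.0376). For Kif5c it was -0.51 and not called (adjusted p = 0.0675). H2, with a muscle score of 3.97, and P74, with 3.50, stayed in that fit. The part of muscle RNA in the member results was not tested. Without P66, counts fell to 1 of 20 neuron genes and 3 of 18 motor neuron genes.

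Some partners of the kinesins were called. Of 17 genes for kinesin light chains, the kinesin-2 accessory subunit and cargo adaptors, 3 were lower and 1 was higher in P than in H, with a median of -0.18. The lower genes were Mapk8ip1 (-0.41 ± 0.11, adjusted p = 0.0254) and Mapk8ip2 (-0.63 ± 0.18, adjusted p = 0.0332), scaffolds that link kinesin-1 to cargo, and the light chain gene Klc2 (-0.59 ± 0.17, adjusted p = 0.0409). Klc3, another light chain gene, was higher at a low level, rising from 0.221 ± 0.158 FPKM in H to 0.621 ± 0.126 in P (adjusted p = 0.0306). The abundant light chain gene Klc1 had a mean of 179.9 ± 22.2 FPKM in H, against 142 ± 23.5 in P, and did not pass. Leaving out H2, P66 or P67 ended all 4 calls, and with median-ratio scaling 6 genes of the list were lower and 1 was higher. Of all 18118 tested genes, 3.26% were called lower and 12.2% higher in P against H, also for comparison with the lists that follow. With median-ratio scaling 1227 tested genes were called lower and 1407 higher, against 591 and 2216 in the main fit.

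Among 30 other tested kinesin genes 5 were higher in P and none was lower, with a median of 0.12. Of all tested genes 12.2% were called higher and 3.26% lower, with a median of 0.07, so 5 of 30 is near the share called higher. The 5 were Kif11 (0.59 ± 0.13, adjusted p = 0.0128), Kif2c, Kif18b, Kif20a and Kif22, all known for roles in mitosis. Their levels were low, from 0.419 ± 0.115 FPKM in H to 1.15 ± 0.381 in P for Kif11, and from 0.063 ± 0.0652 to 0.404 ± 0.106 for Kif2c. All 5 calls were lost without P66, without H2 and without H4, P66 and C84 together. With median-ratio scaling 4 were higher and 2 others were lower.

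Of the other subunits of the retrograde motor, few were called. 1 of 13 other dynein subunit genes was lower, Dynll2, a light chain that also serves other complexes (a mean of 461 ± 90.3 FPKM in H against 250.3 ± 44.1 in P, -0.87 ± 0.21, adjusted p = 0.0204), and the list had a median of -0.07. 1 of 11 other dynactin genes was lower, Dctn3 (-0.53 ± 0.15, adjusted p = 0.0365), with a median of -0.11. Of 15 dynein regulators and adaptors 0 were called with limma, with 4 at an unadjusted p below 0.05 and a list median of 0.00. Of all 18118 tested genes, 5923 had such a p. The Dynll2 call was lost without H2, P66 or P67 (adjusted p over the alternatives from 0.0116 to 0.0914). The Dctn3 call was lost without H2, H4, P66, P67 or C85 (from 0.0143 to 0.143). With median-ratio scaling 4 dynein genes were lower.

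Genes for the tracks and for a main slow cargo of the motors were counted next. Of 19 genes for axonal microtubules and their binding proteins 3 were lower, with a median of -0.15, namely the stathmins Stmn3 (-0.77 ± 0.18, adjusted p = 0.0167) and Stmn2 (-0.59 ± 0.13, adjusted p = 0.0142) and the neuronal tubulin gene Tubb3 (-0.65 ± 0.17, adjusted p = 0.0257). The other 16 did not pass, with differences from -0.55 to 0.29. Of the 19 genes, 9 had an unadjusted p below 0.05 with limma, against 5923 of all 18118 tested genes. 4 of 5 neurofilament genes were lower, with a median of -0.99. Nefl, the light subunit, had a mean of 462 ± 72.4 FPKM in H, against 268 ± 59.7 in P (-0.80 ± 0.17, adjusted p = 0.0123). Nefm differed by -1.23 ± 0.27 (adjusted p = 0.0131), Nefh by -1.06 ± 0.31 (adjusted p = 0.0396) and Prph, which encodes peripherin, by -0.99 ± 0.30 (adjusted p = 0.0445). Without P66 no gene of these lists was called, and without H2 the calls of all 7 genes named here were lost. Nefh and Prph also stand in the motor neuron list, and Stmn2, Tubb3 and Map2 in the general neuron list. The neurofilament score was 7.22 to 7.99 in H and 6.35 to 7.24 in the model libraries, so H4 lay below P74 here too. In C against P and in E against P, 0 genes of these partner, track and cargo lists were called with limma, and at most 3 genes of any 1 list had an unadjusted p below 0.05.

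**Figure D4:**
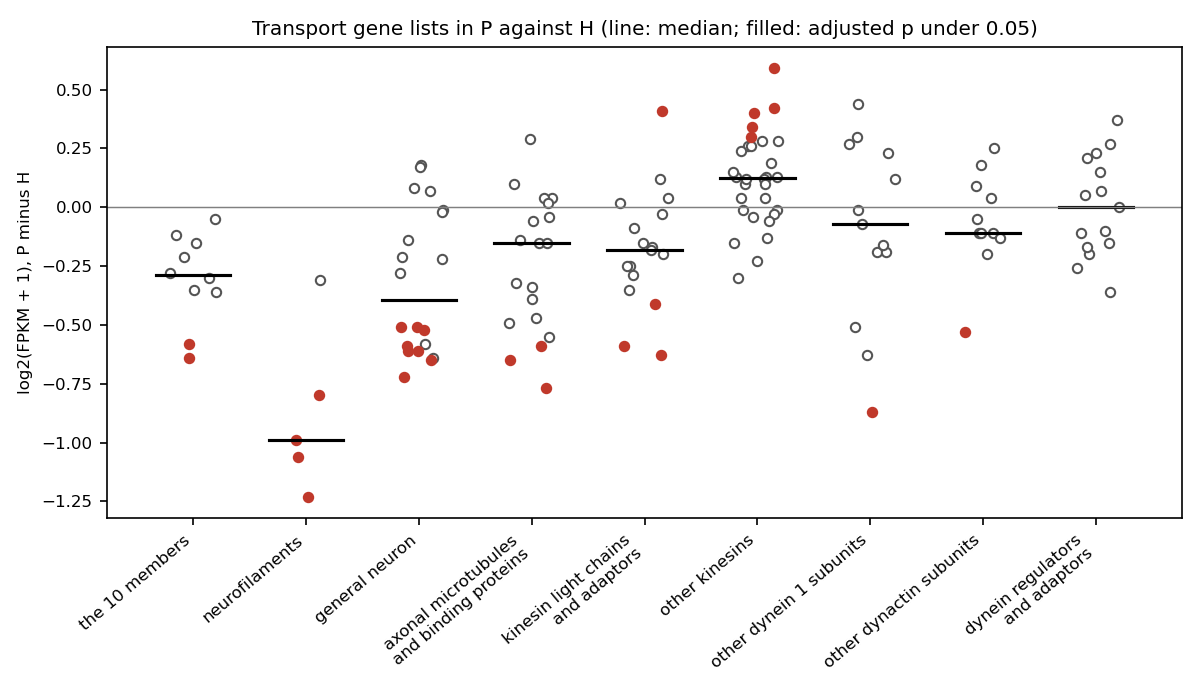
Difference in log2(FPKM + 1) between P and H for each tested gene of the members and of 8 lists, with the list median as a line and filled points where the adjusted p was below 0.05. The medians run from -0.99 for neurofilaments to 0.12 for the other kinesins.

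Genes outside the members were ranked by how closely their pattern followed each called member, as the root mean square difference of centred log2(FPKM + 1) over the 12 libraries. The nearest to Kif5a were Entpd3 (0.082), Ccdc85c (0.094) and Syt3 (0.096), against a median of 0.371 over tested genes, and Kif5c was the nearest member (0.104). The nearest of all tested genes lie below such a median by selection, so it gives only the scale of the differences. For Kif5c they were Cacna2d3 (0.044), a calcium channel subunit gene, Adam23 (0.053) and Cadps (0.057), a gene of vesicle release, against a median of 0.36. For Kif5b they were Edil3 (0.097), 4933431E20Rik (0.103) and Strn (0.108), and the nearest member was Kif1b at 0.173. For Kif1b they were Clmp (0.05), Hif1an (0.05) and Rab11fip4 (0.064). Kif5b thus followed the other heavy chains less closely than Kif5a and Kif5c followed each other.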

How the data were processed

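The authors deposited FPKM values per gene and library in tables whose headers do not state the unit, which was inferred from the numbers. The tools named by the submitters' processing notes are cutadapt, HISAT2 and featureCounts, with the build GRCm38 and no versions or settings. FPKM times the GENCODE M21 union exon length fell on whole multiples of a step (tolerance 0.02) for 96.6 to 97.3% of low values in each library, and these steps gave the recovered reads. Tested genes reached 10 reads, scaled to the median depth, in 3 or more libraries and 15 reads in total (18118 of 33906 identifiers). limma 3.58.1 in R 4.3.3 (trended, robust) was fitted to log2(FPKM + 1) of all 12 libraries with 1 mean per group and 8 residual degrees of freedom, with two-sided p-values adjusted by Benjamini-Hochberg within a comparison. The pseudocount of 1 understates changes of low genes. The fit was also run on simulated reads, with the same spread between mice set for all genes and no shift shared by the genes of a library. That run does not show how the fit performs with libraries such as H4 and P66. Each library came from its own mouse per the labels' protocols. A permutation test of 3 against 3 cannot give a p below 0.1 and was not used. All 10 members were named. From each other list up to 3 genes of smallest adjusted p were named. Klc2, Klc1, Kif20a, Kif22, Prph, Chat and Slc18a3 were added after their values were seen. Map2 was named only as a gene shared between lists. The members and lists were chosen with earlier results of these data known. Several other motifs were looked at, and the 3 motifs shown were kept after their matches had been seen. Alternatives were the pseudocount, filter, scaling, samples in the fit, length and GC trends, a caudal covariate, the variance model and leaving out each library.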

Additional observations from a re-analysis of the deposited data

How the results depend on the processing

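Of 1530 member values under other settings, 1459 kept their side of the threshold, 29 lost a call, 42 gained one and no called value changed sign. The number of members called in P against H was 2. It was 1 without the filter, 4 with median-ratio scaling, 0 with only the groups compared, 5 after removal of length and GC trends, and 1 to 3 leaving out 1 library. With the caudal Hox covariate, or without H4, P66 and C84, it was 3. In C against H it was 3. It was 1 without the filter and 0 to 5 leaving out 1 library. It was 4 with median-ratio scaling, after removal of length and GC trends or with the caudal Hox covariate. Without H4, P66 and C84, a setting chosen after the scores were seen, it was 9. In E against H it was 2. It was 4 with median-ratio scaling, 4 after removal of length and GC trends, 4 with the caudal Hox covariate, 0 to 4 leaving out 1 library and 5 without H4, P66 and C84. In the mean of P, C and E against H it was 4, with 2 to 5 leaving out 1 library and 8 without H4, P66 and C84. It was 6 there after removal of length and GC trends and 5 with the caudal Hox covariate. In C against P, E against P and C against E it was 0 under every setting. The causes were not tested. Median-ratio scaling moved the median of all genes in P against H from 0.0692 to -0.0014, and the share of called genes that were higher from 78.9% to 53.4% (49.3% after removal of length and GC trends). Over all genes, 2807 were called in P against H, with 933 to 3535 leaving out 1 library and 982 to 4058 under the other settings. In C against H 1505 genes were called, with 567 to 1976 leaving out 1 library and 736 to 2691 under the other settings. In E against H 2393 were called, with 1159 to 2795 and 1469 to 3154 in the same order. The share of genes called without H4, P66 and C84 alone is not given here. No paired analysis was possible because the mouse numbers are not shared between groups. With 3 mice a group, the interval of P against H ran from -0.27 to 0.17 for Kif3b and from -0.56 to 0.26 for Dync1h1, which limits what can be seen.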
